A study of Mus musculus with 6 samples.

Results

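Potassium channel genes were examined in hypothalamus RNA of 3 aged mice (22 months old) and 3 young mice (12 weeks old). The study looked for correlates of cognitive decline with age; it began with 5 mice of each age and sequenced 3 of each, picked at random once behaviour had been tested. All mice lived under a regular light cycle with free food and water and were killed under pentobarbital. The labels name no strain, sex, litter or batch. Potassium channel genes were all genes in the count table whose symbol begins with Kcn and a further lower-case letter. These were 93 of 18228 genes, and 78 of them had at least 10 reads in at least 3 of the 6 libraries. All 78 were among the 14702 genes tested. The other 15 had 1 to 57 reads each over the 6 libraries together and were not tested. At the edge of this rule, the third largest count was 11 for Kcnn4, just inside, and 9 for Kcnq1, just outside.

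Potassium channels let potassium cross the cell membrane and so set the resting potential, the shape of action potentials and the firing rate. Voltage-gated pores open on depolarisation, inward rectifiers and tandem-pore leak channels act near rest, and calcium- or sodium-activated pores respond to the ions that enter during firing. Silent subunits and auxiliary proteins change the gating, traffic or number of these pores. In the hypothalamus the channels shape the firing of neuroendocrine and feeding neurons, and in astrocytes inward rectifiers take up the potassium that neurons release.

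Libraries held 17208291 to 18884403 counted reads, of which the 93 genes took 0.436 to 0.456% in aged and 0.476 to 0.502% in young mice. Transcripts of the Y chromosome (Ddx3y, Eif2s3y, Kdm5d and Uty summed) gave 3394 to 3617 reads per aged mouse against 24 to 32 per young mouse, so age and sex cannot be told apart in any comparison below. Levels are given as CPM, read counts scaled to the library total with TMM factors; FPKM, scaled also to gene length, is used to compare genes with each other. The hypothalamus label was checked with 8 marker genes, which were all detected; 5 of the 8 had a log2 fold change below 0, with a median of -0.26. Avp, the vasopressin precursor, rose, with 357, 373 and 361 CPM in aged mice, against 220.5, 253 and 248 CPM in young mice (edgeR adjusted p = 0.00248). Hcrt, the orexin precursor, fell, with 106, 114 and 103 CPM in aged mice, against 247, 164 and 162 CPM in young mice (edgeR adjusted p = 0.0161). Markers of adjoining brain regions differed between libraries. Those of telencephalic glutamatergic neurons summed to 787, 661 and 705 CPM in aged mice, against 751, 1339.6 and 912 CPM in young mice. Of 7 tested, 2 fell, and all 7 had log2 fold changes below 0, with a median of -0.66. Most of the sum was Camk2a, with 713, 572 and 623 CPM in aged mice, against 656, 1045 and 766 CPM in young mice. Slc17a7 had 9.58, 22.1 and 15.1 CPM in aged mice, against 11.3, 173 and 58.5 CPM in young mice. Neither of these genes passed (edgeR adjusted p = 0.155 and 0.0832). Markers of thalamus and habenula summed to 382, 421 and 421 CPM in aged mice, against 514, 631 and 431 CPM in young mice, and 2 of 8 fell. Those of midbrain dopamine neurons summed to 144, 164.9 and 119 CPM in aged mice, against 156, 271 and 346 CPM in young mice. Of 4 tested, 1 fell, Slc6a3, and 3 did not pass. Slc6a3 had 12.7, 19.2 and 4.27 CPM in aged mice, against 22.6, 89.4 and 113 CPM in young mice (edgeR adjusted p = 0.0301). Those of striatum summed to 256, 169 and 187 CPM in aged mice, against 177, 173 and 200 CPM in young mice. Of 6 tested, 0 passed and 1 had a log2 fold change below 0, with a median of 0.28. Young replicate 2 was highest in the telencephalic and thalamic sums, young replicate 3 in the dopamine sum and aged replicate 1 in the striatal sum. A ± after a level is the SD over the 3 mice of a group, and a ± after a log2 fold change (aged over young) is its standard error.

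Of the 78 tested genes, 11 passed edgeR's quasi-likelihood test at a Benjamini-Hochberg adjusted p under 0.05, with 10 lower and 1 higher in aged mice. Over all 14702 genes the same test called 6.86% in either direction, with 3.64% lower and 3.22% higher. The genes that fell were the inward rectifiers Kcnj10, Kcnj6 and Kcnj16, 4 voltage-gated pores with Kcna1, Kcna2 and Kcnb2 among them, the silent subunit Kcng4 and the auxiliary subunits Kcnip3 and Kcne1l. The gene that rose was Kcnk6, a tandem-pore channel. The median log2 fold change was -0.15 over the 78 genes and 0.00 over all tested genes. It lay below 0 in 57 of the 78 (73.1%), and in 50.8% of all tested genes. All aged libraries were below all young ones in 24 of the 78 and above them in 7; over all genes these shares were 16.2% and 15.5%. Most differences were small: 70 of the 78 had a log2 fold change within 0.5 of 0, and Kcnj10 was the 1 gene that reached a size of 1.

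Single libraries moved these counts. Leaving out aged replicate 1, 2 or 3 gave 4, 12 or 3 genes lower and 0, 3 or 0 higher, in fits that called 1.64, 11.03 or 1.01% of all genes. Leaving out young replicate 1, 2 or 3 gave 5, 5 or 7 lower and 0, 1 or 0 higher, in fits that called 1.77, 3.90 or 2.67% of all genes. Kcnj10 and Kcna2 were called under all 17 alternatives tried, 1 of which only loosened the threshold.

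**Figure D1:**
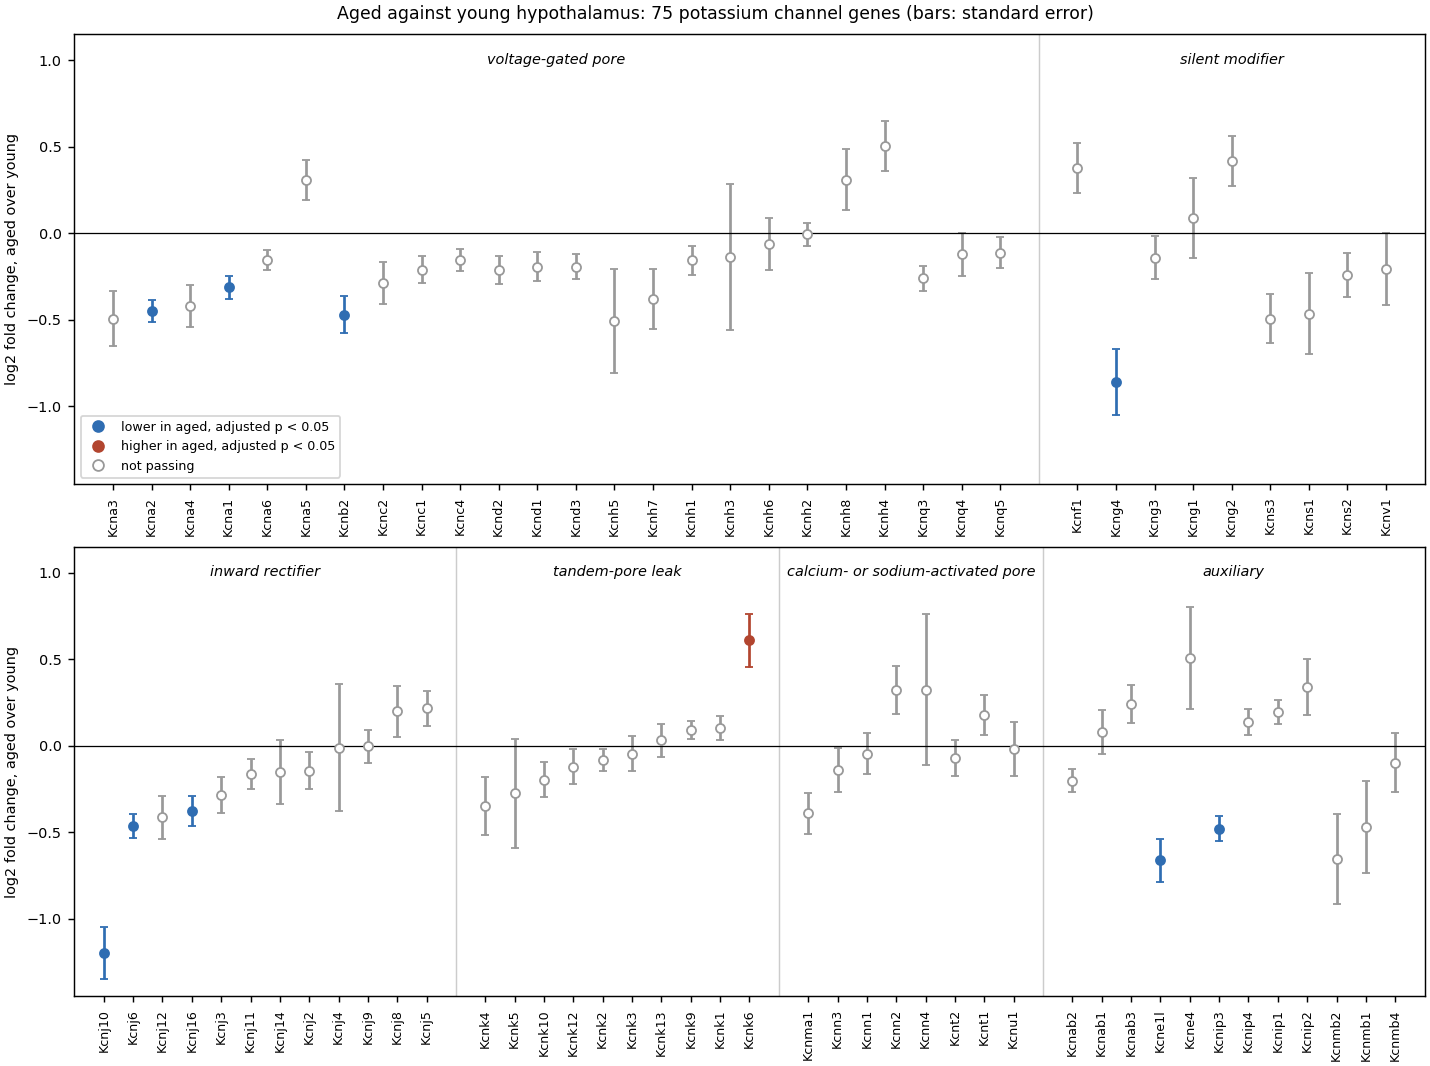
Log2 fold change, aged over young, with its standard error for 75 of the 78 tested genes, arranged by class and subfamily. Filled points passed an adjusted p of 0.05; Kcnj10 lies lowest at -1.20 and Kcnk6 highest at 0.61.

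Kcnj10 and Kcna2 are shown with the DNA around their annotated start, as the pair that was called throughout. Each window runs 5′ to 3′ on the plus strand from 250 bases before to 50 bases after the start, from RefSeq on build GRCm38.p6; the counts were made on GRCm39. Capitals mark GC boxes, the letters GGGCGG on either strand, a motif of general activators of the Sp family.
Kcnj10 promoter, chr1:172340960-172341259: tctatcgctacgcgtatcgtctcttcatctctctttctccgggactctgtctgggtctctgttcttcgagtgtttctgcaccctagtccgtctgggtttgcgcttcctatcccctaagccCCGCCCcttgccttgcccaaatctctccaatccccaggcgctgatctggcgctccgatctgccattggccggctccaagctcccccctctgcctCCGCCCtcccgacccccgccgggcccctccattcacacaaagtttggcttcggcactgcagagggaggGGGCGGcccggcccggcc
Kcna2 promoter, chr3:107101317-107101616: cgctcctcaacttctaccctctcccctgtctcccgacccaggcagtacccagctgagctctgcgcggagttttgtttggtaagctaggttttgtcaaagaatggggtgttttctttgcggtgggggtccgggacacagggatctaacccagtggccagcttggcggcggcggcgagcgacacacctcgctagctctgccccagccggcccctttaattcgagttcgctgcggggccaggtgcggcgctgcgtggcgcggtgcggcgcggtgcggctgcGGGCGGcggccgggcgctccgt
The Kcnj10 window held 3 GC boxes and was 63.7% G or C, and the Kcna2 window held 1 and was 66.7%. The TATA box TATAAA was absent from both on either strand, as were the AP-1 site, searched as TGANTCA, and the cyclic AMP response element, searched as TGACGTCA. RefSeq gave 79 windows for 56 of the 78 tested genes, since a gene can have several starts. A GC box was in 51.9% of these, against 35.7% of 32851 windows of all genes, and TATAAA was in 3.80% against 13.6%. These matches describe the letters and show no binding.

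Inward rectifiers counted 12 tested genes, of which 3 fell, 0 rose and 9 did not pass. Kcnj10 encodes the main inward rectifier of astrocytes. It had 83.5, 51.3 and 74.7 CPM in aged mice, against 178, 156 and 147 CPM in young mice. The groups did not overlap, and aged replicate 2 was the lowest. Means were 69.8 ± 16.6 CPM in aged against 160.2 ± 15.8 CPM in young mice, a change of -56.4% and a log2 fold change of -1.20 ± 0.15 (edgeR adjusted p = 0.00468). Without single libraries the log2 fold change was -1.34 to -1.01, with an adjusted p of 0.000644 to 0.0231. In FPKM, Kcnj10 ranked 9 of 78 in aged mice at 20.4 ± 4.69, against 3 of 78 in young mice at 45.9 ± 4.19.

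Kcnj16 encodes a subunit that joins the Kcnj10 product in mixed channels. Its level was 39.9, 32.6 and 38.0 CPM in aged mice, against 47.1, 49.6 and 46.5 CPM in young mice. Every aged library lay below every young one, and aged replicate 2 was again the lowest. With a log2 fold change of -0.38 ± 0.09 it passed (edgeR adjusted p = 0.0331). That call was lost without aged replicate 1 or 3 or without any 1 of the young libraries, at an adjusted p of 0.0607 to 0.106.

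Some genes of astrocytes and of oligodendrocyte precursors fell too. Of 8 astrocyte markers 3 fell, 0 rose and 5 did not pass, and they summed to 2679.6, 1923 and 2737 CPM in aged mice, against 3136, 3327 and 3074 CPM in young mice. Aged replicate 2 stood far below the other aged libraries here, as it was the lowest for Kcnj10 and Kcnj16. The 3 that fell were Sox9, a glial transcription factor, Aqp4, the water channel of endfeet, and Slc1a2, a glutamate transporter. Their log2 fold changes were -0.83 ± 0.10, -0.70 ± 0.11 and -0.58 ± 0.13 (edgeR adjusted p = 0.00396, 0.0102 and 0.0286). Gfap, an intermediate filament, and S100b, a calcium-binding protein, had 0.21 ± 0.11 and -0.05 ± 0.08 and did not pass (edgeR adjusted p = 0.269 and 0.702). Of 6 markers of oligodendrocyte precursors 2 fell, and all 6 had log2 fold changes below 0. They summed to 375, 299 and 366 CPM in aged mice, against 502, 426 and 456 CPM in young mice. Of 6 markers of myelinating oligodendrocytes 0 passed, and 4 had log2 fold changes below 0. Their sums were 6756, 7026 and 6895 CPM in aged mice, against 7771, 6108 and 6994 CPM in young mice. The part of astrocyte or precursor content in the Kcnj10 and Kcnj16 results was not tested, and in whole tissue fewer cells of a type and less RNA per cell cannot be told apart.

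**Figure D2:**
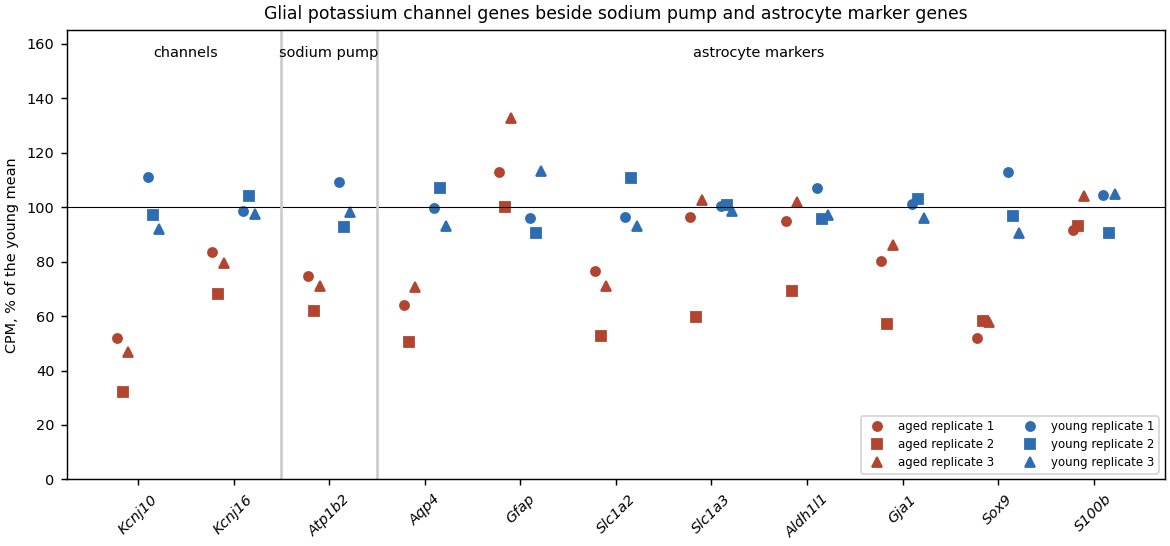
CPM of each library as a percentage of the young mean for Kcnj10 and Kcnj16, the glial sodium pump gene Atp1b2, and 8 astrocyte markers; colours mark age and symbols the replicate. Aged libraries lie below all young ones for both channels, the pump gene, Aqp4, Slc1a2, Gja1 and Sox9, while the groups overlap for the other 4 markers.

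Kcnj6 encodes a neuronal inward rectifier that G protein-coupled receptors open. Its libraries had 77.2, 71.5 and 70.1 CPM in aged mice, against 92.7, 104 and 105 CPM in young mice. The groups did not overlap. The log2 fold change was -0.46 ± 0.07 (edgeR adjusted p = 0.00915, and 0.0616 without aged replicate 3). The sum of midbrain dopamine markers came in the same order as Kcnj6 over the young libraries, and in another order over the aged ones. It was 144, 164.9 and 119 CPM in aged mice, against 156, 271 and 346 CPM in young mice. Of these markers 4 of 4 had log2 fold changes below 0, with a median of -0.50. The part of tissue from outside the hypothalamus was not tested. Kcnj3, Kcnj5 and Kcnj9, which encode the other subunits of these receptor-gated channels, did not pass, with log2 fold changes of -0.28 ± 0.10, 0.22 ± 0.10 and 0.00 ± 0.10. Whether Kcnj6 differed from them in its change was not tested.

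Kcnj12, a classical inward rectifier, had a log2 fold change of -0.41 ± 0.12 and did not pass (edgeR adjusted p = 0.0728, and 0.0340 without young replicate 3). Kcnj11, the pore of the ATP-sensitive channel that ties firing to glucose, had 30.2 ± 1.12 CPM in aged against 33.9 ± 3.21 CPM in young mice (edgeR adjusted p = 0.260). Kcnj8, an ATP-sensitive pore of pericytes and smooth muscle, had 4.93, 5.24 and 5.19 CPM in aged mice, against 4.81, 4.77 and 3.84 CPM in young mice (edgeR adjusted p = 0.431). All 3 aged libraries of Kcnj8 lay above the young ones by a small margin. Markers of pericytes and smooth muscle summed to 174 to 197 CPM in aged against 242 to 291 CPM in young mice, and 2 of 7 fell. Kcnj2, an inward rectifier of vessels and neurons, had a log2 fold change of -0.14 ± 0.11, with an edgeR adjusted p of 0.430. Kcnj13, known from choroid plexus, was not tested, with 6, 2 and 4 reads in aged against 1, 12 and 13 in young mice. Summed over 15 Kcnj genes the level was 429.9 ± 18.8 CPM in aged against 579 ± 34.4 CPM in young mice.

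Voltage-gated pores counted 27 tested genes, of which 4 fell, 0 rose and 23 did not pass; 24 of the 27 had a log2 fold change below 0. The Kcna genes encode low-threshold pores of axons. Kcna2 had 202, 207 and 192 CPM in aged mice, against 282, 284 and 255 CPM in young mice. The gap between the groups was wider than the range within either. The log2 fold change was -0.45 ± 0.06, a change of -26.7% (edgeR adjusted p = 0.00655, and 0.00548 to 0.0450 without single libraries). Kcna1, whose product joins that of Kcna2 in axonal channels, had 93.0, 94.4 and 87.6 CPM in aged mice, against 119, 116 and 106 CPM in young mice. Its groups did not overlap either. It passed with -0.31 ± 0.07 (edgeR adjusted p = 0.0259). The call was lost without aged replicate 1 or 3 or young replicate 1 or 2 (0.0616 to 0.124), with the trend on gene length removed (0.0640) and on log2(FPKM + 1) (0.0502).

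Among the other Kcna genes, Kcna4, a fast-inactivating pore, had 25.2 ± 3.27 CPM in aged against 33.8 ± 4.82 CPM in young mice and an edgeR adjusted p of 0.0682. It passed in DESeq2 (0.0270) and without aged replicate 2 (0.0340). Kcna3, found in neurons and immune cells, had a log2 fold change of -0.49 ± 0.16 (edgeR adjusted p = 0.0889). Kcna6, the highest Kcna gene in FPKM, had -0.15 ± 0.06 (edgeR adjusted p = 0.132). Summed over 8 Kcna genes the level was 504 ± 13.1 CPM in aged against 626 ± 34.5 CPM in young mice.

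Kcnb2 encodes a slow delayed rectifier of neuronal cell bodies and dendrites. It had 23.4, 23.8 and 25.2 CPM in aged mice, against 29.8, 39.0 and 31.5 CPM in young mice. The groups did not overlap, and young replicate 2, highest in telencephalic markers, was the highest library; the part of those markers was not tested. The log2 fold change was -0.47 ± 0.11 (edgeR adjusted p = 0.0311). The call was lost without aged replicate 1 or 3 or young replicate 2 or 3 (0.0600 to 0.113), with the length trend removed (0.0589), on log2(FPKM + 1) (0.0848) and on log2(FPKM + 0.1) (0.0902).

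**Figure D3:**
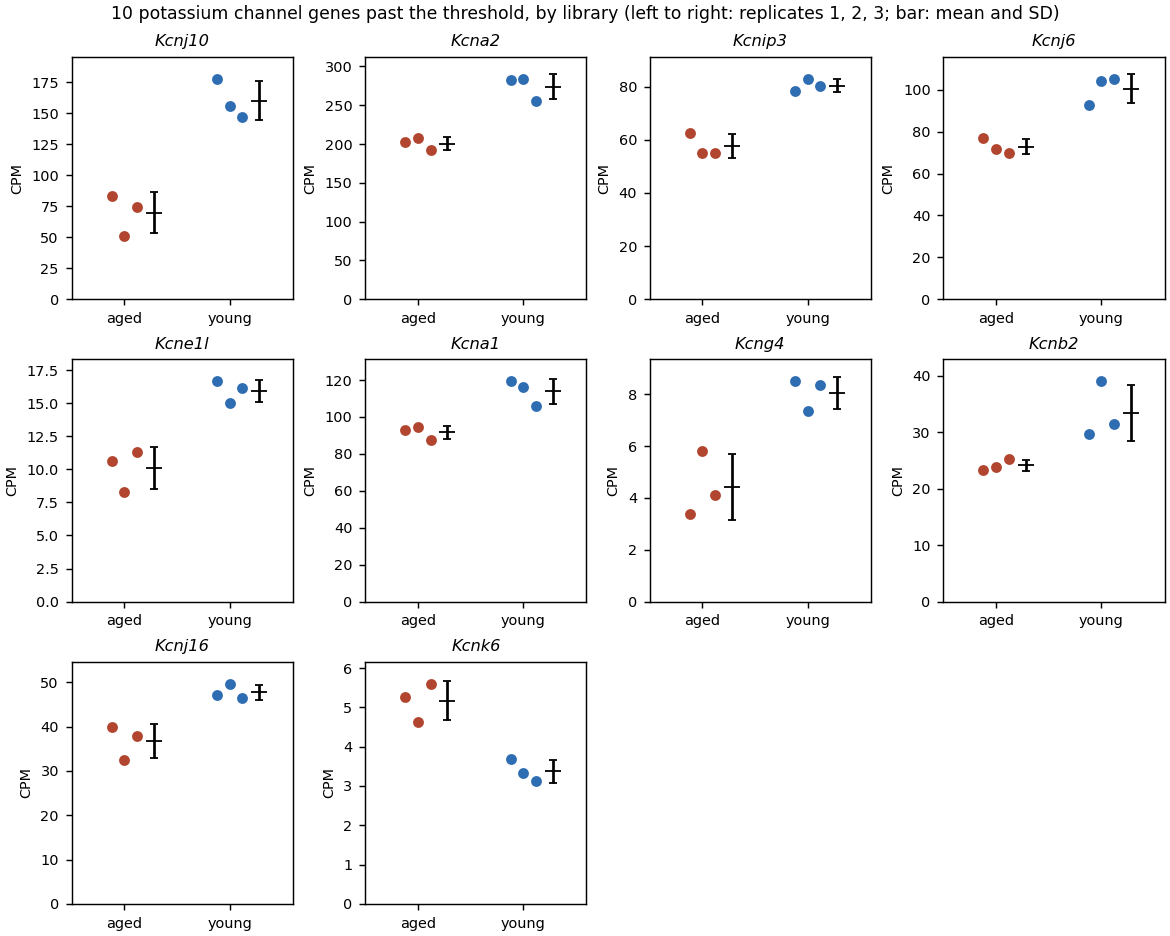
CPM in each library for 10 of the 11 genes past the threshold, aged left of young, with the mean and SD beside the points. The groups do not overlap in any of the 10, and Kcnk6, at 4.62 to 5.60 CPM in aged against 3.12 to 3.69 CPM in young mice, is the gene that was higher in aged mice.

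In the Kcnc, Kcnd, Kcnh and Kcnq subfamilies 0 genes passed in edgeR and 1, Kcnq3, passed in DESeq2. The 4 Kcnc genes, for fast channels of rapidly firing neurons, had log2 fold changes of -0.29 to -0.16, and the 3 Kcnd genes, for the transient A-type current, of -0.22 to -0.20. All 7 had an unadjusted p under 0.05, as did 1 of 8 Kcnh genes, 2 of 4 Kcnq genes and 26.2% of all genes. Kcnc1 had 256 ± 6.38 CPM in aged against 296 ± 33.6 CPM in young mice (edgeR adjusted p = 0.128). Kcnd2 had 91.2 ± 8.63 CPM in aged against 106 ± 6.80 CPM in young mice (edgeR adjusted p = 0.131), and Kcnd3 had 102 ± 6.13 CPM in aged against 117 ± 7.82 CPM in young mice (0.123). With the length trend removed the log2 fold change of Kcnd2 was 0.01, a value that rests on a gene length 19.1 times its exon length in GENCODE M21. Kcnc2 passed only when young replicate 3 was left out; it is named because of that call.

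The Kcnq genes encode the M-current, which muscarinic receptors shut. Kcnq3 had a log2 fold change of -0.26 ± 0.07 (edgeR adjusted p = 0.0610; DESeq2 0.0369), and Kcnq5 had -0.11 ± 0.09 (0.463). Of 8 genes for ether-à-go-go channels, Kcnh2, the highest in FPKM, had 113 ± 1.09 CPM in aged against 114 ± 8.19 CPM in young mice. Kcnh4 had a log2 fold change of 0.50 ± 0.14 (edgeR adjusted p = 0.0650, and 0.0476 without aged replicate 2).

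Silent subunits form no channel alone and modify Kcnb channels; of 9 tested, 1 fell, 0 rose and 8 did not pass. Kcng4 had 3.36, 5.82 and 4.10 CPM in aged mice, against 8.50, 7.35 and 8.34 CPM in young mice. The aged libraries all lay below the young ones. The log2 fold change was -0.86 ± 0.19 (edgeR adjusted p = 0.0305). The call held without aged replicate 2 and was lost on leaving out any other library (0.0514 to 0.116). Kcns3 had -0.50 ± 0.14 (edgeR adjusted p = 0.0646), Kcns2 -0.24 ± 0.13, Kcng2 0.42 ± 0.14 and Kcnv1 -0.21 ± 0.21, and none of these 4 passed. Kcnf1, the highest silent subunit in FPKM, had 75.3, 58.9 and 67.4 CPM in aged mice, against 43.0, 64.6 and 47.8 CPM in young mice. Young replicate 2 overlapped the aged libraries, and the adjusted p was 0.136 in edgeR and 0.0321 without that library.

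Auxiliary subunits counted 12 tested genes, of which 2 fell, 0 rose and 10 did not pass. Kcnip3 encodes a calcium-binding protein that attaches to Kcnd channels and is also known as a transcriptional repressor. It had 62.7, 55.1 and 55.1 CPM in aged mice, against 78.2, 82.8 and 80.1 CPM in young mice. The groups were well apart. Its log2 fold change was -0.48 ± 0.07 (edgeR adjusted p = 0.00789, and 0.0532 without aged replicate 3). Kcnip1, the highest of the same subfamily in FPKM, had 81.7, 80.7 and 84.5 CPM in aged mice, against 77.1, 66.1 and 72.1 CPM in young mice. Its aged libraries were the higher ones, but the log2 fold change of 0.20 ± 0.07 did not pass (edgeR adjusted p = 0.110).

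Kcne1l belongs to the single-pass Kcne subunits and lies on the X chromosome. It had 10.6, 8.31 and 11.3 CPM in aged mice, against 16.6, 14.99 and 16.2 CPM in young mice. With -0.66 ± 0.12 on the log2 scale it passed (edgeR adjusted p = 0.0185), and the call was lost without aged replicate 1, young replicate 1 or young replicate 3 (0.0574 to 0.0684). The part of sex in this result was not tested and cannot be told apart from that of age. Kcne2, known from choroid plexus, was not tested, with 5, 6 and 3 reads in aged against 2, 5 and 6 in young mice. Kcnab2, a cytoplasmic beta subunit of Kcna channels, had 211 ± 9.48 CPM in aged against 243 ± 15.4 CPM in young mice (edgeR adjusted p = 0.0874). Kcnmb1, the smooth muscle subunit of the large calcium-activated channel, had a log2 fold change of -0.47 ± 0.27, and Kcnmb4, its neuronal counterpart, of -0.10 ± 0.17 (edgeR adjusted p = 0.295 and 0.755).

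Tandem-pore channels set the resting potential; of 10 tested, 1 rose, 0 fell and 9 did not pass. Kcnk6 had 5.27, 4.62 and 5.60 CPM in aged mice, against 3.69, 3.33 and 3.12 CPM in young mice. The groups did not overlap, at a low level per length of 1.27 ± 0.114 FPKM in aged against 0.817 ± 0.0639 FPKM in young mice. The log2 fold change was 0.61 ± 0.15 (edgeR adjusted p = 0.0467). The call was lost in 9 of 17 alternatives, among them DESeq2 (0.0876), limma-voom (0.0505) and each fit without 1 library other than aged replicate 2 (0.0833 to 0.160). Kcnk13, a microglial channel, had 13.3 ± 1.09 CPM in aged against 13.1 ± 0.412 CPM in young mice (edgeR adjusted p = 0.870). Microglia markers summed to 251 to 287 CPM in aged against 259.7 to 266 CPM in young mice, and 1 of 6, P2ry12, fell. Kcnk9, the highest tandem-pore gene in FPKM, had a log2 fold change of 0.09 ± 0.05, and Kcnk1, found in neurons and glia, of 0.10 ± 0.07. Summed over 13 Kcnk genes the level was 424 ± 3.92 CPM in aged against 413 ± 8.23 CPM in young mice.

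Of 8 pores classed by subfamily with the calcium- or sodium-activated ones, 0 passed in edgeR. An unadjusted p under 0.05 was seen in 2, and 1, Kcnma1, passed in DESeq2. Kcnma1, the large-conductance channel, had 151, 164 and 151 CPM in aged mice, against 180.3, 250.1 and 181 CPM in young mice. Young replicate 2 was far above the other young libraries, as it was in telencephalic markers, whose part was not tested. The log2 fold change was -0.39 ± 0.12 (edgeR adjusted p = 0.0743; DESeq2 0.0137). Kcnn1, Kcnn2 and Kcnn3, the small-conductance channels behind the afterhyperpolarisation, had -0.05 ± 0.12, 0.32 ± 0.14 and -0.14 ± 0.13. Kcnn2 had an adjusted p of 0.176 in edgeR, and of 0.0114 without aged replicate 2. Kcnn4, a channel of microglia and blood cells, had 0.684 ± 0.377 CPM in aged against 0.555 ± 0.130 CPM in young mice. Kcnt1, the highest of this class in FPKM, is a sodium-activated channel and had 259.6 ± 24.9 CPM in aged against 229 ± 39.2 CPM in young mice (edgeR adjusted p = 0.370). Kcnu1, known from sperm and placed in this class by its subfamily alone, had a log2 fold change of -0.02 ± 0.16.

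Mean FPKM over the 6 libraries started at 0.0988, with a median of 3.23. It exceeded 10 in 23 of the 78 genes and was under 1 in 12. Kcnab2 averaged 43.5 ± 2.17 FPKM in aged against 49.0 ± 2.55 FPKM in young mice. Kcna6, Kcnj9, Kcnip1 and Kcnh2 followed each other at 26.5, 26.0, 26.0 and 24.3 FPKM, with ranges over libraries that overlapped. The gene length behind FPKM was more than 5 times the exon length in GENCODE M21 for Kcnd2, Kcna4, Kcng3, Kcnip4 and Kcnmb2, so their FPKM are low relative to that length.

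**Figure D4:**
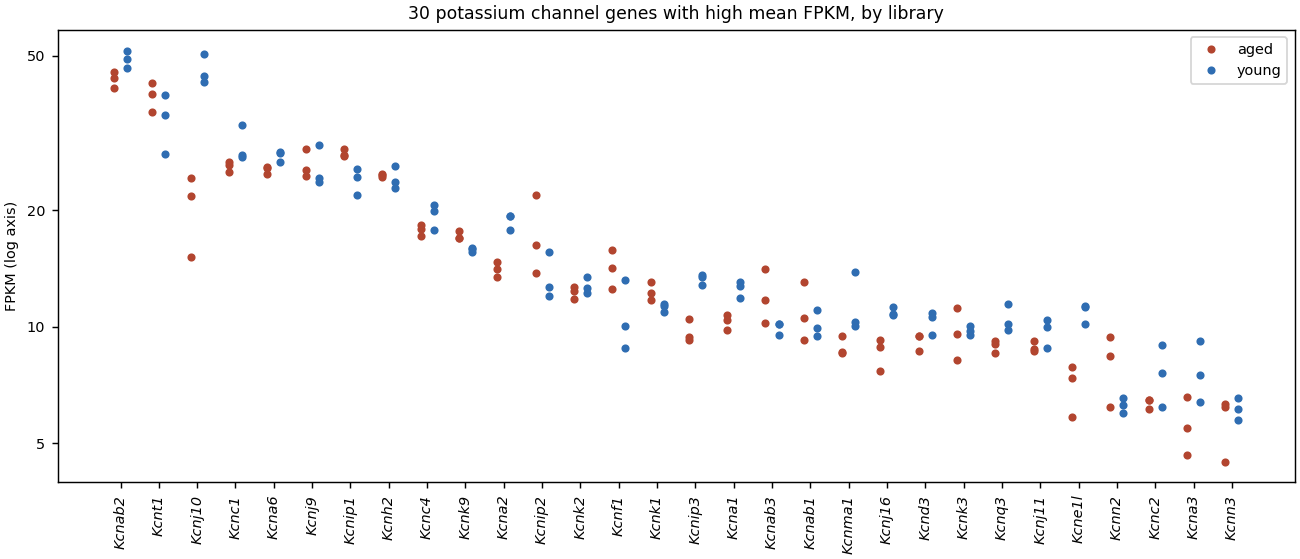
FPKM in each library on a log axis for 30 genes with high means, aged left of young. Kcnab2 lies highest of those drawn, except that Kcnj10 reaches similar levels in young mice; Kcnj10 averages 20.4 FPKM in aged against 45.9 FPKM in young mice.

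Several of the genes lie next to each other in the genome. Kcnj9 neighbours Kcnj10, and their log2 fold changes were 0.00 and -1.20. Kcna3 neighbours Kcna2, with -0.49 and -0.45. Kcnj2 neighbours Kcnj16, with -0.14 and -0.38. Kcna1 lies between Kcna5 and Kcna6, with -0.31 beside 0.31 and -0.15. No difference between neighbours was tested.

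Of 49 tested genes for channel partners and other potassium transport, 6 fell (12.2%), 0 rose and 43 did not pass. Their median log2 fold change was -0.14. Over all tested genes 3.64% fell and 3.22% rose, with a median of -0.00348. Atp1b2, a sodium pump subunit of glia, had 744 ± 72.2 CPM in aged against 1075 ± 91.1 CPM in young mice; the pump returns potassium to the cell. Its log2 fold change was -0.53 ± 0.09 (edgeR adjusted p = 0.0112, and 0.0544 without aged replicate 3). Ank3 and Ank2, scaffolds that anchor membrane proteins in axons, had -0.31 ± 0.06 and -0.30 ± 0.07 (edgeR adjusted p = 0.0228 and 0.0278). With the length trend removed they had -0.11 and -0.13 and did not pass (0.317 and 0.241). On log2(FPKM + 1) their adjusted p was 0.0651 and 0.0519. Both calls were lost without aged replicate 1 or 3 or young replicate 1 or 2, and that of Ank2 also without young replicate 3 (0.0572 to 0.110 for Ank3 and 0.0600 to 0.124 for Ank2).

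Slc24a3, a potassium-dependent sodium-calcium exchanger, had -0.36 ± 0.07 (edgeR adjusted p = 0.0216), lost without aged replicate 1 or 3 or young replicate 1 or 2 (0.0532 to 0.104). Adam23, a membrane partner of the Lgi proteins, had -0.21 ± 0.06 (edgeR adjusted p = 0.0490), lost in 13 of 17 alternatives and without any 1 of the 6 libraries (0.0618 to 0.210). Nearest to passing were Slc24a2, a related exchanger, Dpp6, an auxiliary subunit of Kcnd channels, Lgi1, a secreted protein, and Hcn2, a hyperpolarisation-activated pore. Their log2 fold changes were -0.28 ± 0.08, -0.21 ± 0.06, -0.20 ± 0.06 and -0.29 ± 0.09 (edgeR adjusted p = 0.0552, 0.0624, 0.0726 and 0.0862). Slc24a2, Dpp6 and Hcn2 passed in DESeq2 (0.0180, 0.0323 and 0.0388).

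The 78 genes are long, with a median of 5.52 kb against 3.69 kb over all tested genes. With each library's trend of counts on gene length removed, 7 were lower and 1 was higher, 7 of these 8 were among the 11 called above, and 5.05% of all genes were called. The eighth was Kcnip4, the higher one, whose length in this correction is 45.4 times its exon length in GENCODE M21. The correction uses the lengths behind FPKM, which exceed that exon length more than 2 times in 15 of the 78 genes. The median log2 fold change of the 78 was then -0.09. Of 8 general neuron markers 0 passed in edgeR and 0 had an unadjusted p under 0.05, and their summed level was 4605 to 4878 CPM in aged against 4698 to 5280.4 CPM in young mice.

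**Figure D5:**
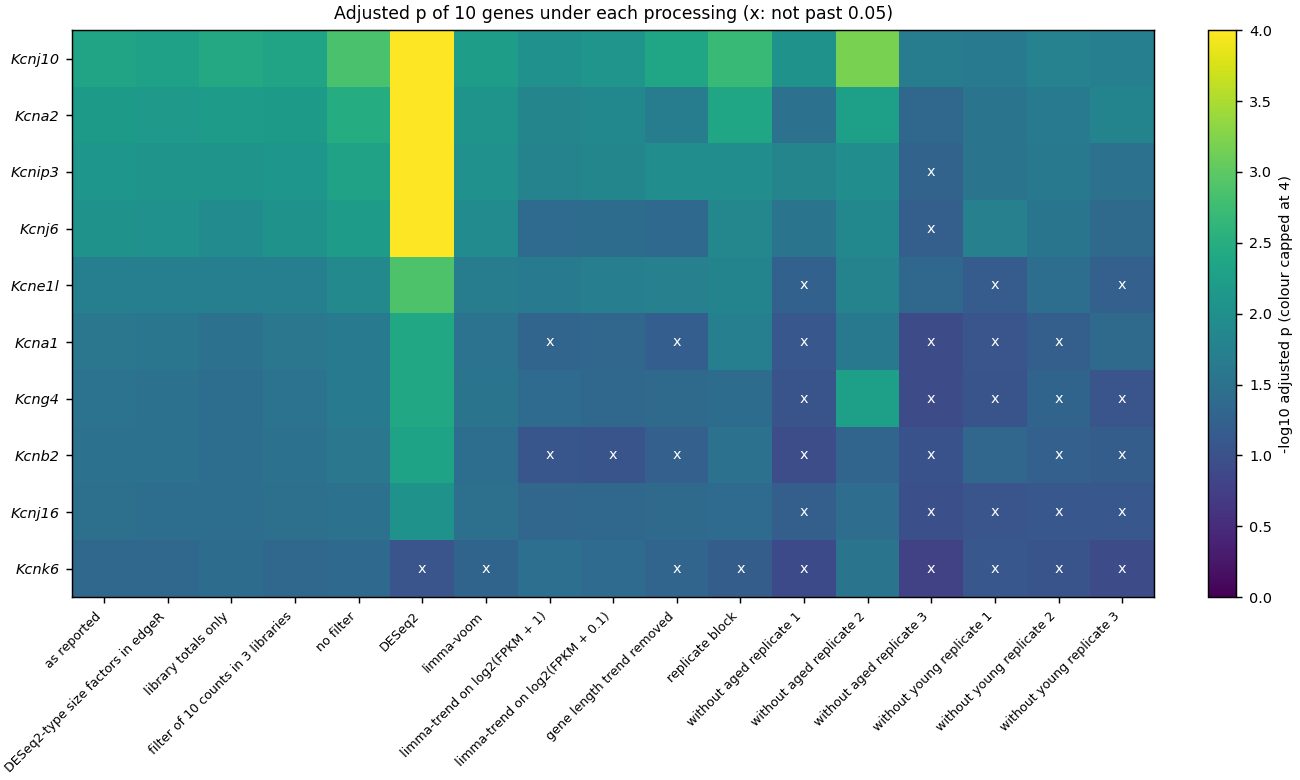
Adjusted p of 10 genes as reported and under 16 alternatives; brighter cells have a smaller adjusted p, and a cross marks 0.05 or more. Kcnj10 and Kcna2 carry 0 crosses, Kcnip3 and Kcnj6 carry 1 each, and Kcnk6 carries 9.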

How the data were processed

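Hypothalamus RNA was made into TruSeq Stranded mRNA libraries, per the labels' protocols. The authors deposited whole-number read counts per gene and FPKM for the same genes; FPKM matched counts over gene length and library total for 100% of genes (relative tolerance 1e-06). The submitters' processing notes list Trimmomatic, HISAT2, Cufflinks, HTSeq, DESeq and build GRCm39. The strand setting and the handling of reads shared by several genes are not given, so paralogs and overlapping genes are uncertain to that extent.

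Counts were tested with edgeR 4.0.16 in R 4.3.3 (quasi-likelihood, TMM, filterByExpr with a minimum count of 10 and a minimum total of 15), which kept 14702 genes. The SE is that implied by the test. Alternatives used DESeq2 1.42.0 and limma 3.58.1, and the scripts were tested on simulated data. With 17208291 to 18884403 reads per library, counting error is largest for the members with few reads. Each library came from its own mouse and counts once; replicates differed by more than sampling noise (chi-square over its degrees of freedom 3.91 to 11.6). RefSeq tables (GRCm38.p6) gave chromosomes for 93 of 93 symbols by name, and promoter windows for 56 of the 78 tested genes.

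Named genes were the members that passed, the highest in FPKM of each subfamily, the 8 nearest to passing, known glial, vascular and choroid plexus channels, channels known in firing control, the partners that passed and the 4 nearest, and 4 Y-linked genes as a check. Members, lists and tests were chosen with earlier results of these data known. Some genes that the rule would name are counted but not reported here by name.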

Additional observations from a re-analysis of the deposited data

How the results depend on the processing

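Counts as reported were 10 members lower and 1 higher, and 535 of all genes lower and 474 higher. Without 1 library at a time the members ranged over 3 to 12 lower and 0 to 3 higher, with 55 to 732 for all genes called lower and 95 to 901 for all genes called higher. An adjusted p threshold of 0.1 gave 17 members lower and 2 higher, and 1170 and 1017 of all genes. The higher member, Kcnk6, did not pass in DESeq2, limma-voom or the replicate block, each with 0 members higher; these gave 13, 10 and 14 lower, beside 720, 506 and 667 lower and 589, 427 and 523 higher over all genes. All genes called lower were 293 on log2(FPKM + 1), 303 on log2(FPKM + 0.1) and 356 with the length trend removed. Scaling by library totals gave 627 higher and 446 lower over all genes, and left the members at 10 and 1. For the replicate block, same-numbered libraries correlated at 0.10, 0.04 and -0.14 in their deviations from the group mean. With 3 libraries per group these values cannot decide whether the numbers pair the mice, and the labels do not say. Aged replicate 1 correlated best with young replicate 1, aged replicate 2 with young replicate 3 and aged replicate 3 with young replicate 2.

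Some genes that did not pass changed sign; their reported log2 fold changes ran from -0.22 for Kcnd2 to 0.32 for Kcnn4. With library totals as the scale the log2 fold changes were Kcnh2 0.0228, Kcnu1 0.0110, Kcnj9 0.0260, Kcnj4 0.0185. Under no filter they were Kcnh2 0.00133, Kcnj9 0.00294. With log2(FPKM + 1) the log2 fold changes were Kcnh2 0.0239, Kcnu1 0.00253, Kcnj9 0.0283, Kcnh3 0.0186, Kcnj4 0.0681. Under log2(FPKM + 0.1) they were Kcnh2 0.0249, Kcnu1 0.00161, Kcnj9 0.0294, Kcnh3 0.0709, Kcnj4 0.15. With the length trend removed the log2 fold changes were Kcnh2 0.0155, Kcnq5 0.0116, Kcnd2 0.00680, Kcnj4 0.0570. Under limma-voom they were Kcnj9 0.00107, Kcnh3 0.0414, Kcnj4 0.13. With the replicate block the log2 fold changes were Kcnj4 0.0689. Without single libraries the ranges were Kcnh2 -0.0337 to 0.0626, Kcnh3 -0.50 to 0.52, Kcnj4 -0.34 to 0.54, Kcnj9 -0.0637 to 0.12, Kcnk13 -0.0283 to 0.0769, Kcnmb4 -0.23 to 0.15, Kcnn1 -0.14 to 0.0407, Kcnn3 -0.23 to 0.0187, Kcnn4 -0.18 to 0.64, Kcnu1 -0.14 to 0.0633. The cause was not tested. Depth limits genes with few reads, such as Kcnn4.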

Other observations

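Kcnh3, an ether-à-go-go channel, and Kcnj4, an inward rectifier, both known from telencephalic neurons, varied more between mice of one age than between ages; they are named after their values were seen. Kcnh3 had 17.1, 9.45 and 9.98 CPM in aged mice, against 5.45, 23.2 and 11.5 CPM in young mice. Kcnj4 had 19.1, 13.6 and 10.8 CPM in aged mice, against 6.74, 23.8 and 13.3 CPM in young mice. Within each age the order of the libraries was the same for both genes apart from the 2 lowest aged libraries, with young replicate 2 highest and young replicate 1 lowest. Young replicate 2 was also highest in the sum of telencephalic markers and young replicate 1 lowest among the young. Of the aged libraries, replicate 1 was highest for both genes, in the telencephalic sum and in the striatal sum. The telencephalic sum was 787, 661 and 705 CPM in aged mice, and the striatal sum 256, 169 and 187 CPM. Single telencephalic markers went both ways. Aged replicate 1 was lowest of the aged for Slc17a7 (9.58, 22.1 and 15.1 CPM) and highest for Tbr1 (10.7, 8.26 and 9.40 CPM). Their log2 fold changes were -0.14 ± 0.42 and -0.01 ± 0.37, and neither passed (edgeR adjusted p = 0.873 and 0.991). The part of tissue taken from outside the hypothalamus was not tested.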
